A study of Mus musculus with 8 samples.

Results

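The set described here is 9 rows of small nuclear RNAs (snRNAs) out of the 5518 rows of small RNAs that were counted. They are Rnu5g, Rnu7, Rnu11 and Rnu12, and the predicted genes Gm25099, Gm25313, Gm24871, Gm23287 and Gm23143. The rows were picked by symbol, after earlier work on the same files had found them abundant in fibroblasts sequenced by TruSeq and nearly without reads in embryonic stem cells sequenced by TEsR. Their values in those 2 groups are therefore a description, and the fibroblast libraries sequenced by TEsR are the ones that had no part in the choice.

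Small nuclear RNAs are short, uridine-rich RNAs that work inside protein particles of the nucleus. The spliceosomal ones recognise the ends of introns and position the exons for joining: U5 serves both the major and the minor spliceosome, while U11 and U12 belong to the minor spliceosome, which removes a rare class of introns. U7 takes no part in splicing; it pairs with histone pre-mRNAs and directs the cleavage of their 3′ ends. These RNAs are made in every dividing cell, carry a ring of Sm or Sm-like proteins on a short uridine-rich site, and receive a modified 5′ cap.

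TEsR, target-enrichment sequencing of small RNAs, ligates linkers to both ends of RNA after a decapping step, amplifies the products without size selection and pulls down the targeted RNAs with probes; the TEsR libraries were run on a MiSeq. TruSeq is the standard small RNA library kit, and those libraries were run on a HiSeq. The tables hold the deposited read counts of 8 mouse libraries. Which RNAs the TEsR probes target is not given in the sources used here.

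MEF TEsR comprised 4 libraries of mouse embryonic fibroblasts (MEFs) in which TRF2, a telomere-protecting protein, can be deleted, and which also carry the Rosa26-CreERT2 recombinase. Of these, 2 samples were induced, which in this line means deletion of TRF2 by 0.6 µM 4-hydroxytamoxifen (4OHT) for 48 hours, and 2 were uninduced. The columns carry the codes mmS1, mmS2, pmS1 and pmS2, which the labels do not explain, so induced and uninduced libraries cannot be told apart and the 4 were kept as 1 group. MES TEsR comprised 2 libraries of B6G-2 mouse embryonic stem (MES) cells grown without feeders, labelled as not induced. The induced MEF TruSeq group comprised 2 libraries of the same conditional fibroblasts, known by their indexes ATCACG and CGATGT. All MEF libraries thus share the conditional allele and the recombinase, and the TruSeq comparison sets a mixed group against induced cells only. Whether the libraries within a group stem from separate cultures is not stated, so p-values measure the spread between these libraries, which may be technical.

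Totals were 3221641 to 3768668 counts in the MEF TEsR libraries, 2676776 and 2785150 in the MES TEsR libraries, and 8442960 and 8961221 in the TruSeq libraries. A count of 0 therefore allowed up to 3 counts, or 0.796 to 0.931 CPM (read count scaled to a common library total) in MEF TEsR, 1.08 and 1.12 CPM in MES TEsR and 0.335 and 0.355 CPM in TruSeq. A pair of leading rows took 76.2% to 83.1% of each MEF TEsR library, 80.9% and 82.3% of the MES TEsR libraries, and 67.8% and 71.6% of the TruSeq libraries. The cell types were checked on microRNA markers. All 12 stem cell marker rows had counts in MES TEsR, with summed levels of 475 to 517 CPM, against 0 to 1.33 CPM over 2 of these rows in MEF TEsR and 0 in TruSeq. Of 10 fibroblast marker rows, 8 had counts in MEF TEsR (4622 to 20730 CPM in sum), 3 in MES TEsR (131 to 142 CPM) and 9 in TruSeq (59.8 to 97.2 CPM). Most of the TEsR sums fell on Mir21a, with means of 13011 CPM in MEF TEsR and 132 CPM in MES TEsR, against 7.51 CPM in TruSeq. The TruSeq sum lay below that of MES TEsR, so this sum alone does not identify the TruSeq cells. Muscle markers had counts in 1 of 4 rows, at up to 4.56 CPM in MEF TEsR and up to 0.374 CPM in MES TEsR. The neural, blood and liver marker rows found by symbol were at 0 in all 8 libraries. The planned blood marker Mir142 had no row of that symbol. The rows mmu-mir-142a and Mir142b each averaged 0.919 CPM in MES TEsR and 0 in MEF TEsR and TruSeq. The deletion of TRF2 could not be checked, since the tables hold small RNAs only.

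Sequence sets which reads can be told apart. Transcript sequences were taken from GENCODE vM21 on the mm10 (GRCm38) build. Rnu5g, the named U5 gene, and the 5 predicted genes were all 116 bases long and differed from one another at 15 positions. The copies were identical over their first 70 bases, 60.3% of the RNA, and all differences lay between positions 71 and 114, counted from the 5′ end. Against Rnu5g, Gm25313 matched at 113 of 116 positions (97.4%), Gm24871 and Gm23287 at 109 each (94.0%), Gm23143 at 106 (91.4%) and Gm25099 at 105 (90.5%). Between any pair of copies there were 3 to 13 differences. A read that ends within the first 70 bases would match all 6 copies equally. How reads with several matches were assigned is not given in the sources used here, so the split of counts among the copies is uncertain. Their sum does not depend on that split, but it would miss any such reads that were dropped or assigned to other rows.

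The other 3 RNAs were 62 to 151 bases long. Their sequences are shown, 5′ to 3′ as DNA, because they are the members that are not copies of one another. Capitals mark the longest run of T, with 1 base on each side; the first was taken where runs tied. This definition was set after the sequences had been seen.
Rnu11: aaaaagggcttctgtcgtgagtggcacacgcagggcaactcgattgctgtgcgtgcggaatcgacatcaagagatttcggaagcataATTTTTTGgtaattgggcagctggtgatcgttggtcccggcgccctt
Rnu12: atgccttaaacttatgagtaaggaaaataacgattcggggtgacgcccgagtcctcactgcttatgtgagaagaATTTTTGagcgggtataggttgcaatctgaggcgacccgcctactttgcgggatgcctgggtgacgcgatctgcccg
Rnu7: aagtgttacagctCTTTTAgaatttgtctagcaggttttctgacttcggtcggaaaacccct

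In Rnu11 the longest run of T read ATTTTTTG, at positions 88 to 95 from the 5′ end, and in Rnu12 it read ATTTTTG, at positions 75 to 81. One or the other of these occurred in 57 of the 1373 snRNA rows outside the 9 that had a sequence (4.15%), in 2 of 1507 small nucleolar RNA (snoRNA) rows (0.133%) and in 86 of all 5446 rows with a sequence (1.58%). On the opposite strand they occurred in 2.62% of those other snRNA rows and in 1.63% of all rows. They differ in the number of T bases, so no match of one overlaps a match of the other on the same run. Rnu7 held neither, and its longest run read CTTTTA at positions 14 to 19. The letters CTTTTA do not set Rnu7 apart, since 7 of the 9 rows held them, beside 3.86% of the other snRNA rows. Capitals and matches concern letters only. They were not tested as binding sites and are not offered as the position of the Sm site, in Rnu7 or elsewhere.

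The genes lay on 5 chromosomes. Coordinates are on mm10. Rnu5g (chromosome 9, minus strand) and Gm25313 (chromosome 9, minus strand) both sat in an intron of Parp16, on the strand opposite to that gene. Gm25099 (chromosome 4), Gm23143 (chromosome 4) and Gm23287 (chromosome 4) followed one another on the plus strand and overlapped no annotated gene. Gm24871 (chromosome 1, minus strand) was exonic in the non-coding gene B930036N10Rik on the same strand. Rnu7 (chr6:124741225-124741286, minus strand, 62 bases) was exonic in the protein-coding gene Grcc10 and intronic in Gm45234, both on the same strand. Rnu11 (chr4:132270080-132270213, minus strand, 134 bases) overlapped an exon of the long non-coding gene Gm28872 on the opposite strand. Rnu12 (chr15:83149644-83149794, plus strand, 151 bases) overlapped no gene and lay 260 bases from Poldip3. Whether counting used strand is not given in the sources used here, so reads of the overlapping genes cannot be told apart from those of Rnu5g, Gm25313, Gm24871, Rnu7 and Rnu11. No row of the tables that had counts overlapped any of the 9.

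The near absence of these RNAs in stem cells sequenced by TEsR also held in fibroblasts sequenced by TEsR. All 9 together had 11, 2, 21 and 1 counts in the MEF TEsR libraries mmS1, mmS2, pmS1 and pmS2, and 4 and 1 counts in MES TEsR replicates 1 and 2, against 55564 and 58778 counts in the TruSeq libraries ATCACG and CGATGT. Their share of all counts was 0.000243% ± 0.000263 in MEF TEsR (SD, n = 4) and 9.05e-05% ± 7.51e-05 in MES TEsR (SD, n = 2), against 0.658% ± 0.0538 in TruSeq (SD, n = 2). No TEsR library of either cell type came near the TruSeq libraries. In bulk RNA, fewer cells holding an RNA and less of it per cell cannot be told apart. All levels here are shares of a library's counts, and the 2 kinds of library also differ in ligation, capture, sequencer and cells. The TEsR columns also carry the tag q10, which the TruSeq columns lack, and whether reads were filtered differently is not stated. Method, processing and level therefore cannot be told apart in either comparison with TruSeq.

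**Figure D1:**
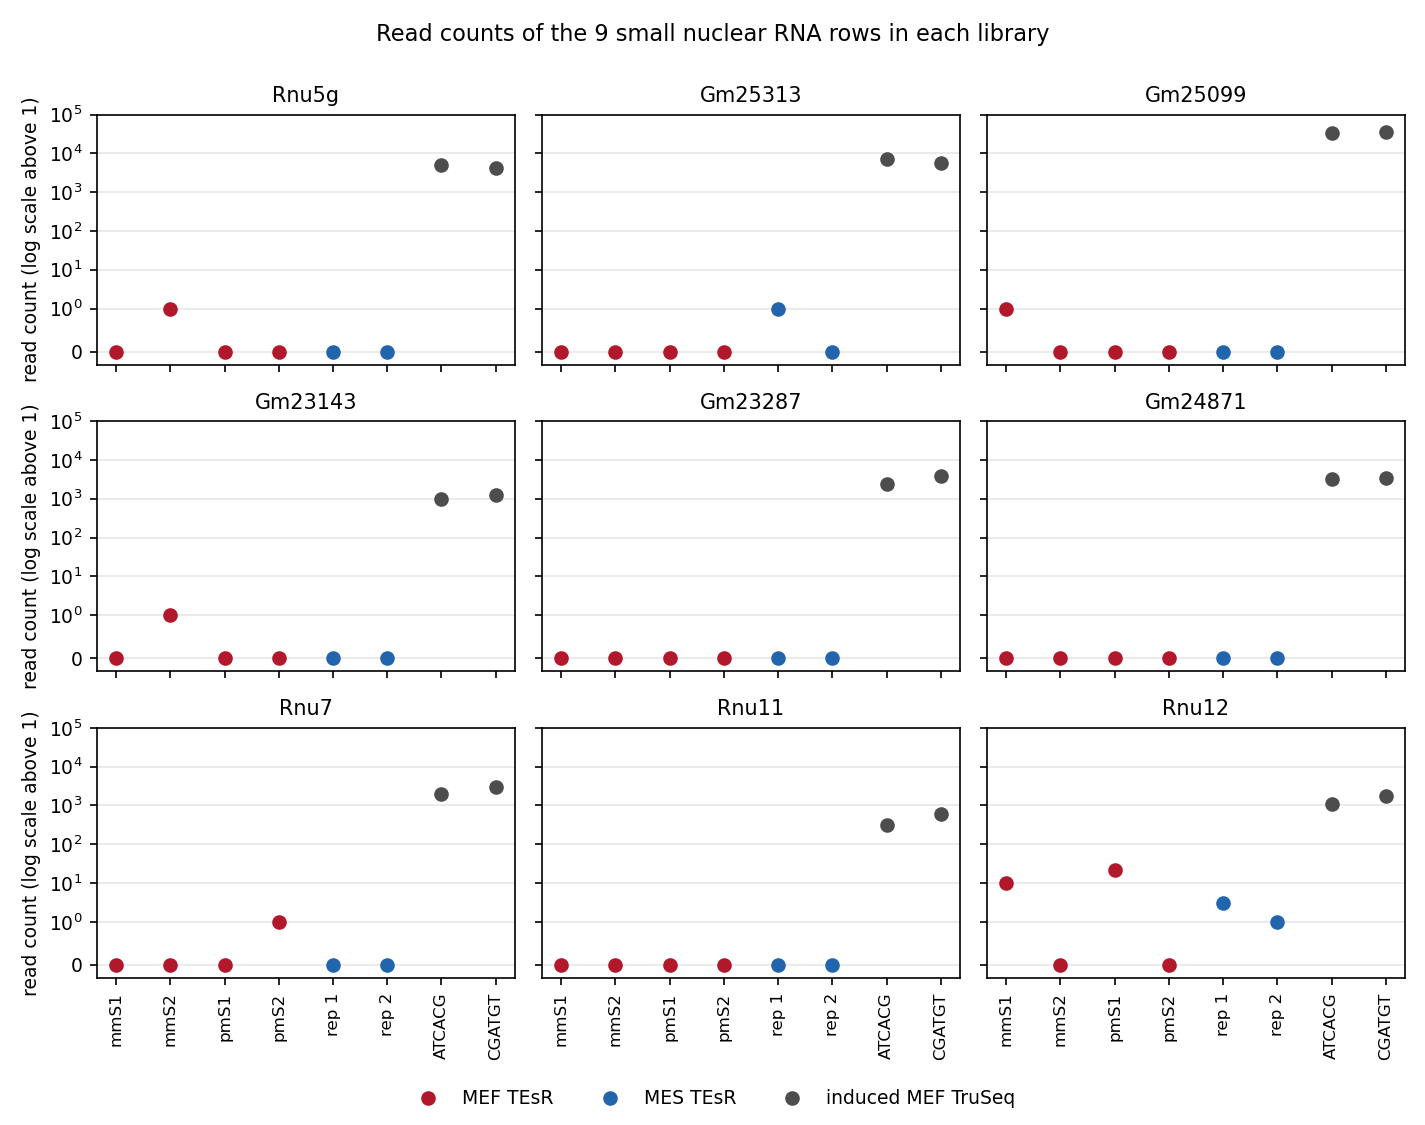
Read counts of each of the 9 rows (vertical axis, logarithmic above 1) in each of the 8 libraries, with MEF TEsR in red, MES TEsR in blue and induced MEF TruSeq in grey. Every point in TruSeq lies at 306 counts or more, and outside Rnu12 no TEsR point lies above 1 count.

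The U5 copies made up most of the set. Gm25099, the most abundant of them, had 1, 0, 0 and 0 counts in MEF TEsR and 0 and 0 in MES TEsR, against 33665 and 35277 in TruSeq. Pooled over libraries it was 56473-fold lower in MEF TEsR than in TruSeq, with an exact 95% counting interval of 10135 to 2.23e+06 that rests on a single read. Gm25313 had 0 counts in all 4 MEF TEsR libraries and 1 and 0 in MES TEsR, against 6943 and 5473 in TruSeq. With every MEF TEsR library at 0 it was at least 842-fold lower there than in TruSeq, when the TruSeq mean of 712 CPM is set against the 3 counts that a 0 allows per library.

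Rnu5g itself had 0, 1, 0 and 0 counts in MEF TEsR and 0 and 0 in MES TEsR, against 5027 and 4279 in TruSeq. It was 7623-fold lower in MEF TEsR than in TruSeq (interval 1368 to 301118). The named U5 gene thus stood at the limit of detection in all 6 TEsR libraries, as did the copies around it.

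Gm24871 had no count in any TEsR library of either cell type, against 3211 and 3356 counts in TruSeq, and was at least 447-fold lower in MEF TEsR. Gm23287 likewise had no count in any TEsR library, against 2437 and 3851 in TruSeq, and was at least 431-fold lower in MEF TEsR. Gm23143 had 0, 1, 0 and 0 counts in MEF TEsR and 0 and 0 in MES TEsR, against 1001 and 1230 in TruSeq, a ratio of 1827 (interval 328 to 72214) for MEF TEsR. A sum over the 6 copies sets aside the split among them, though not any loss of reads with several matches. It gave 1, 2, 0 and 0 counts in MEF TEsR and 1 and 0 in MES TEsR, against 52284 and 53466 in TruSeq.

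Among the 6 copies, which are equal in length, the TruSeq counts were unequal. Gm25099 took 64.4% of them in library ATCACG and 66.0% in CGATGT. Gm25313 followed with 13.3% and 10.2%, and Rnu5g with 9.61% and 8.003%. The shares of Gm24871 (6.14% and 6.28%) and Gm23287 (4.66% and 7.20%) overlapped between libraries, so their order is not set, and Gm23143 was lowest with 1.91% and 2.30%. The leading copy was the one with the lowest identity to Rnu5g, and it differed from it at 11 positions. The TEsR libraries held too few reads to give a split.

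**Figure D2:**
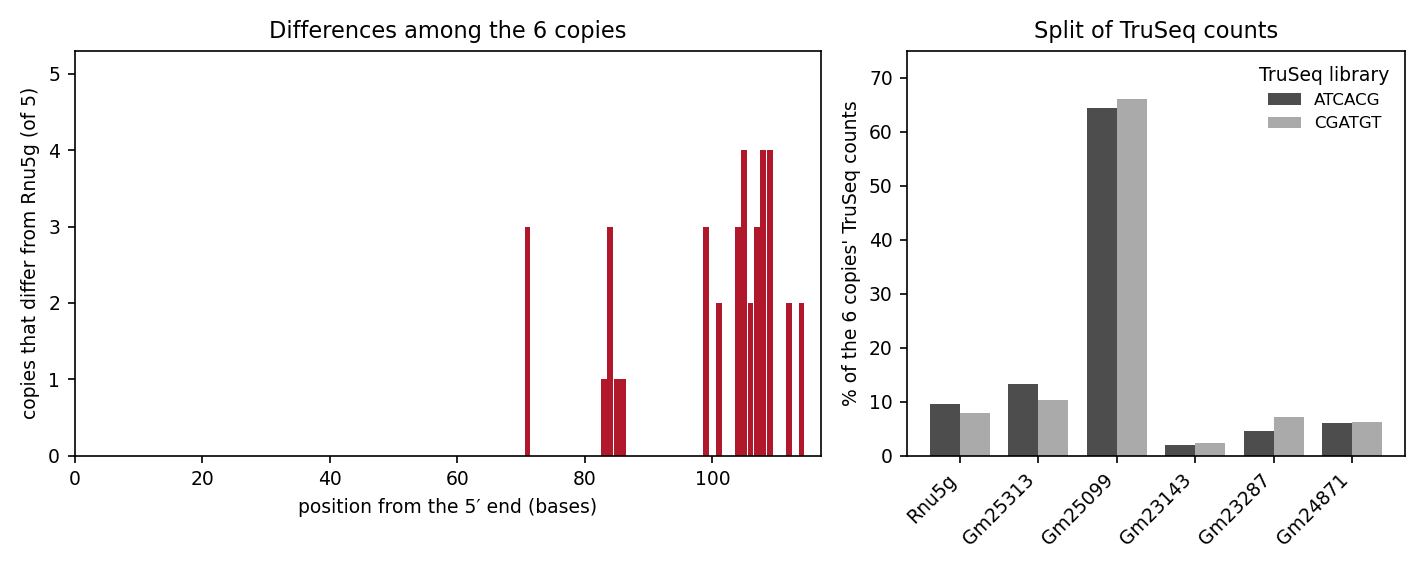
On the left, the number of the 5 other copies (vertical axis) that differ from Rnu5g at each position from the 5′ end (horizontal axis, bases), with no difference before position 71. On the right, the percent of the 6 copies' TruSeq counts that went to each copy in libraries ATCACG and CGATGT, with Gm25099 at 64.4% and 66.0%.

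The 2 minor-spliceosome RNAs differed from each other in TEsR. Rnu11 had no count in any TEsR library, against 306 and 594 counts in TruSeq, which are the lowest TruSeq counts of the set, and was at least 61.8-fold lower in MEF TEsR. Rnu12 was the one row of the 9 with more than a single read in a TEsR library. It had 10, 0, 21 and 0 counts in MEF TEsR libraries mmS1, mmS2, pmS1 and pmS2, and 3 and 1 counts in MES TEsR, against 1055 and 1732 in TruSeq. The reads in fibroblasts came from the 2 libraries whose code ends in S1, and the 2 whose code ends in S2 had none; what the codes stand for is not given. In CPM, Rnu12 averaged 2.15 ± 2.82 in MEF TEsR (SD, n = 4) and 0.725 ± 0.497 in MES TEsR (SD, n = 2), against 161 ± 61.8 in TruSeq (SD, n = 2). Pooled, it was 73.6-fold lower in MEF TEsR than in TruSeq (interval 51.8 to 109). All libraries of MEF TEsR lay below both TruSeq libraries, while the MEF TEsR and MES TEsR libraries overlapped.

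Rnu7, the U7 RNA of histone pre-mRNA processing and the shortest of the set, had 0, 0, 0 and 1 counts in MEF TEsR and 0 and 0 in MES TEsR, against 1919 and 2986 in TruSeq. It was 4018-fold lower in MEF TEsR (interval 721 to 158728). At most 1 read per TEsR library was thus found for members of 62 to 134 bases, and Rnu12, at 151 bases, was the exception.

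In the fit of MEF TEsR against induced MEF TruSeq (edgeR quasi-likelihood test over 352 rows, Benjamini-Hochberg adjusted p under 0.05), all 9 rows were called lower. Over all rows tested, 55.7% were called lower and 32.4% higher, with a median log2 fold change of -2.42. Apart from Rnu12, the 9 passed the filter on low counts only through the TruSeq libraries. All 9 had been chosen on those libraries, so nothing is read from that count. Rnu12, the one with TEsR counts above 1, had a log2 fold change of -5.75 ± 0.96 (SE), given as a description, and was lower in 4 of 4 MEF TEsR libraries. In the fit of MES TEsR against induced MEF TruSeq, the contrast that chose the rows, 9 of 9 were lower, beside 50.0% of all rows tested that were lower and 36.6% that were higher, as a description. Both fits share the TruSeq libraries.

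The direct comparison of the 2 cell types within TEsR called none of the 9 rows and had few reads to compare. None of them passed the filter in the fit of MEF TEsR against MES TEsR, in which 31.5% of 273 rows were called higher and 43.6% lower. Without the filter 6 of the 9 could be fitted and 0 were called by edgeR, with 0 at an unadjusted p under 0.05; DESeq2 was run on the filtered rows only. Rnu12 then had a log2 fold change of 0.69 ± 1.22 (SE), higher in 2 of 4 MEF TEsR libraries than in both MES TEsR libraries, with an adjusted p of 0.642. Gm25313 had -2.96 ± 2.04 with an adjusted p of 0.228, on 1 read in all. At these depths a difference between fibroblasts and stem cells was not detectable for these RNAs.

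The scarcity of reads in TEsR was then set against rows as abundant in TruSeq. There were 167 rows with at least 306 counts, the lowest count of the 9, in each TruSeq library. Of these, 24 rows (14.4%) had at most 1 count in every MEF TEsR library, and 17 rows (10.2%) had at most 1 count in every MES TEsR library. Of the 9 snRNAs 8 met this in MEF TEsR and the same 8 met it in MES TEsR, with Rnu12 as the exception in both. Among these 8 are the 6 U5 copies, identical over their first 70 bases, so the 8 are not separate observations. Of the 158 other rows, 16 (10.1%) met it in MEF TEsR and 9 (5.70%) in MES TEsR, and 5 met it in both. The snoRNA rows met it in 15 of 149 cases (10.1%) in MEF TEsR and in 7 (4.70%) in MES TEsR. The counts of the 9 in MES TEsR and in TruSeq were used to choose them, so only the 8 of 9 in MEF TEsR is a value the choice did not use on the TEsR side. MEF TEsR and MES TEsR share the method, and 5 of the 9 other rows that met the limit in MES TEsR also met it in MEF TEsR. That share, rather than the 10.1%, is the nearer background for rows chosen on MES TEsR.

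**Figure D3:**
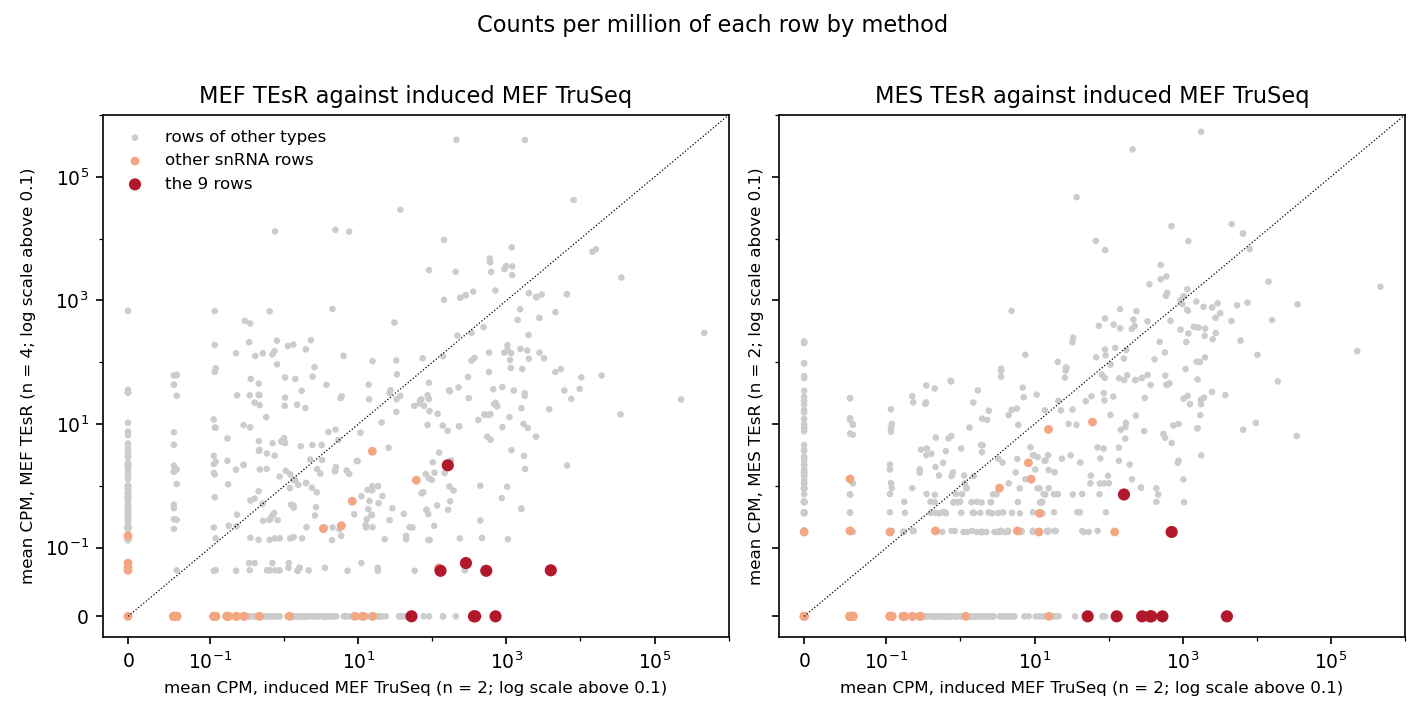
Mean CPM of every row with a count, on logarithmic axes above 0.1, in MEF TEsR (left panel, vertical) and in MES TEsR (right panel, vertical) against induced MEF TruSeq (horizontal). The 9 snRNA rows, in red, lie at 52.3 to 3968 CPM in TruSeq and at the foot of both panels, with Rnu12 highest among them in MEF TEsR at 2.15 CPM.

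Of the 16 other rows with at most 1 count in each MEF TEsR library, 1 was an snRNA row, Gm22265, and 15 were snoRNA rows. Gm22265 is 116 bases long, lies 10 edits from Rnu5g, and had 0, 0, 1 and 0 counts in MEF TEsR and 1 and 0 in MES TEsR, against 931 and 1166 in TruSeq. Its profile was thus that of the U5 copies listed above. The box C/D RNA Snord88c had no TEsR count in either cell type, against 1533 and 916 in TruSeq. Some rows parted the cell types: Snord13, another box C/D RNA, had 1, 1, 0 and 0 counts in MEF TEsR and 59 and 73 in MES TEsR, and Gm26447 had 0, 1, 1 and 1 in MEF TEsR and 72 and 56 in MES TEsR. None of the 9 snRNAs had more than 3 counts in a MES TEsR library.

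The 5 rows most like the 9 were found by the distance between group means of log2(CPM + 1) over the 3 groups, among 467 rows with at least 10 counts in a library. The median profile of the 9 was 0.08 in MEF TEsR, 0 in MES TEsR and 8.46 in TruSeq on that scale. The nearest were Snord88a at a distance of 0.840, snopsi28S-3327 and Snora16a at 0.841 each, Gm24455 at 1.01 and Mir3096, which is typed as a snoRNA, at 1.04. snopsi28S-3327 and Snora16a overlap and have identical counts, so they are 1 observation. Snord88a had 0, 1, 0 and 1 counts in MEF TEsR and 3 and 1 in MES TEsR, against 5359 and 2853 in TruSeq.

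Other RNAs of similar length were counted in TEsR. Rows of snoRNAs of 62 to 151 bases, the length range of the 9, took 94.98% ± 2.46 of MEF TEsR counts (SD, n = 4) and 99.4% ± 0.0218 of MES TEsR counts (SD, n = 2), against 26.9% ± 2.32 of TruSeq counts (SD, n = 2). Most of these TEsR counts fell on Snord68 and Snord70, with means of 396422 and 397975 CPM in MEF TEsR and 537678 and 278627 CPM in MES TEsR. Among the snoRNA rows of this length range, those of 100 to 151 bases took 0.0144% ± 0.00498 in MEF TEsR and 1.38% ± 0.176 in MES TEsR, against 0.486% ± 0.110 in TruSeq. The MES TEsR value rests on 1 row, the box H/ACA RNA Snora21, with a mean of 9225 CPM in MES TEsR. Without it, which was tried after seeing the data, the class took 0.0123% ± 0.00347 in MEF TEsR and 0.456% ± 0.0728 in MES TEsR, against 0.479% ± 0.111 in TruSeq. Every MEF TEsR library then lay below every other library, and the MES TEsR and TruSeq libraries overlapped.

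**Figure D4:**
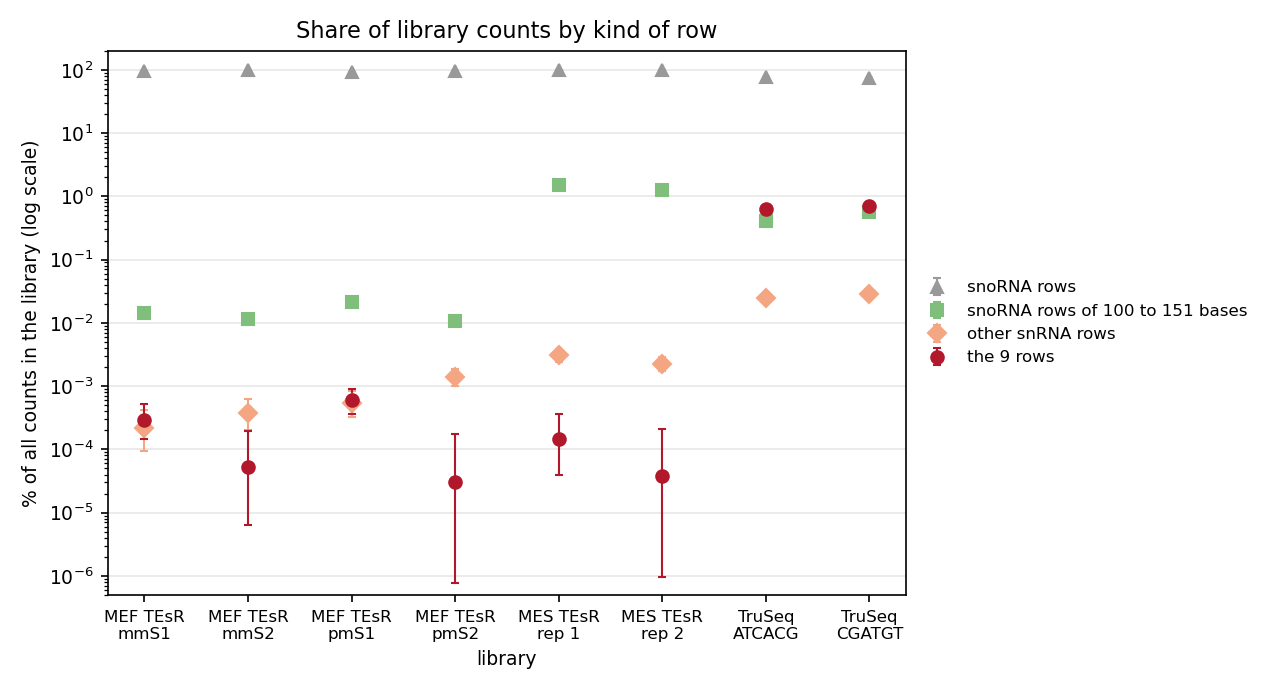
Percent of all counts (vertical axis, logarithmic) in each library that fell on the 9 rows (circles), on the other snRNA rows (diamonds), on snoRNA rows of 100 to 151 bases (squares) and on all snoRNA rows (triangles), with exact 95% binomial intervals. The 9 rows stay below 0.001% in all 6 TEsR libraries and reach 0.620% and 0.696% in TruSeq.

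Within the snRNA class the share of the 9 rows was set against all snRNA counts, as a description for MES TEsR and TruSeq, where the rows were chosen. They held 57.9%, 12.5%, 52.5% and 2.17% of snRNA counts in the MEF TEsR libraries mmS1, mmS2, pmS1 and pmS2, and 4.49% and 1.64% in MES TEsR, against 96.1% and 96.0% in TruSeq. The 2 high values of MEF TEsR are the Rnu12 counts of mmS1 and pmS1. The 1375 other snRNA rows had 8, 14, 19 and 45 counts in MEF TEsR and 85 and 60 in MES TEsR, against 2226 and 2438 in TruSeq, or 0.000630% ± 0.000528 (SD, n = 4) and 0.00265% ± 0.000573 (SD, n = 2) of all counts, against 0.0269% ± 0.00285 (SD, n = 2). Every MES TEsR library lay above every MEF TEsR library in these other snRNAs.

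Most of these TEsR reads fell on rows close to U2, the RNA that pairs with the intron's branch site. Gm26316 lies 1 edit from the named U2 row Rnu2-10 and had 5, 12, 9 and 24 counts in MEF TEsR and 28 and 17 in MES TEsR, against 105 and 162 in TruSeq. Gm25360 lies 4 edits from Rnu2-10 and had 0, 0, 1 and 15 counts in MEF TEsR and 35 and 24 in MES TEsR, against 558 and 498 in TruSeq. Both fell in MEF TEsR relative to MES TEsR, by log2 fold changes of -1.88 ± 0.75 (SE, adjusted p 0.0408) for Gm26316 and -3.82 ± 1.25 (adjusted p 0.0169) for Gm25360 with edgeR. In CPM, 3 of 4 MEF TEsR libraries lay below both MES TEsR libraries for Gm26316, and 4 of 4 for Gm25360. With DESeq2 neither passed, at adjusted p of 0.0870 and 0.146, and without pmS1 or either MES TEsR library neither was called. The value of Gm25360 also rests on pmS2, which held 15 of its 16 MEF TEsR counts: with a library left out it ranged from -7.18 without pmS2 to -3.34. Gm26316 and Gm25360 were the only other snRNA rows tested in that fit.

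Against TruSeq, 8 of 9 tested other snRNA rows were lower in MEF TEsR and 0 were higher, beside 55.7% of all rows tested that were lower, and DESeq2 gave the same counts. In MES TEsR 6 of 10 were lower and 0 higher, which is near the 50.0% of all rows tested that were lower, and DESeq2 gave 4 lower and 0 higher. Only lower calls had an unadjusted p under 0.05 in these fits with edgeR, 8 in MEF TEsR and 6 in MES TEsR. Except for Gm25360 in MES TEsR, the rows called lower passed the filter on low counts only through the TruSeq libraries. Nothing is therefore read from these counts, and the values against TruSeq are a description. Gm26316 was the exception in MEF TEsR, with -1.35 ± 0.72 and an adjusted p of 0.0936. Gm22710, 66 edits from its nearest named row, Rnu6, had 2, 0, 5 and 1 counts in MEF TEsR and 9 and 4 in MES TEsR, against 60 and 83 in TruSeq. Its log2 fold change in MEF TEsR was -3.30 ± 0.76 with edgeR, given as a description. Gm22513, 1 edit from the named U1 row Rnu1a1, had no TEsR count, against 134 and 138 in TruSeq. Gm25939, 3 edits from Rnu2-10, had no count in MEF TEsR and 3 and 4 in MES TEsR, against 108 and 50 in TruSeq. Gm24265 had no count in MEF TEsR and 2 and 0 in MES TEsR, against 119 and 85 in TruSeq. Gm24407 had 0, 0, 1 and 2 counts in MEF TEsR and 0 and 1 in MES TEsR, against 62 and 41 in TruSeq. With edgeR both of these rows were lower in MEF TEsR and in MES TEsR than in TruSeq; with DESeq2 Gm24407 was not called in MES TEsR (adjusted p 0.0534). Without library ATCACG, Gm24407 was not called in MEF TEsR. Gm25541, with 0, 2, 1 and 0 counts in MEF TEsR and 2 and 3 in MES TEsR, against 21 and 37 in TruSeq, was tested in MES TEsR and not called (adjusted p 0.523 with edgeR). Gm24497 was among the 5 highest in MES TEsR by mean level, with no count in MEF TEsR and a mean of 1.29 CPM in MES TEsR, against 0.0558 CPM in TruSeq.

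**Figure D5:**
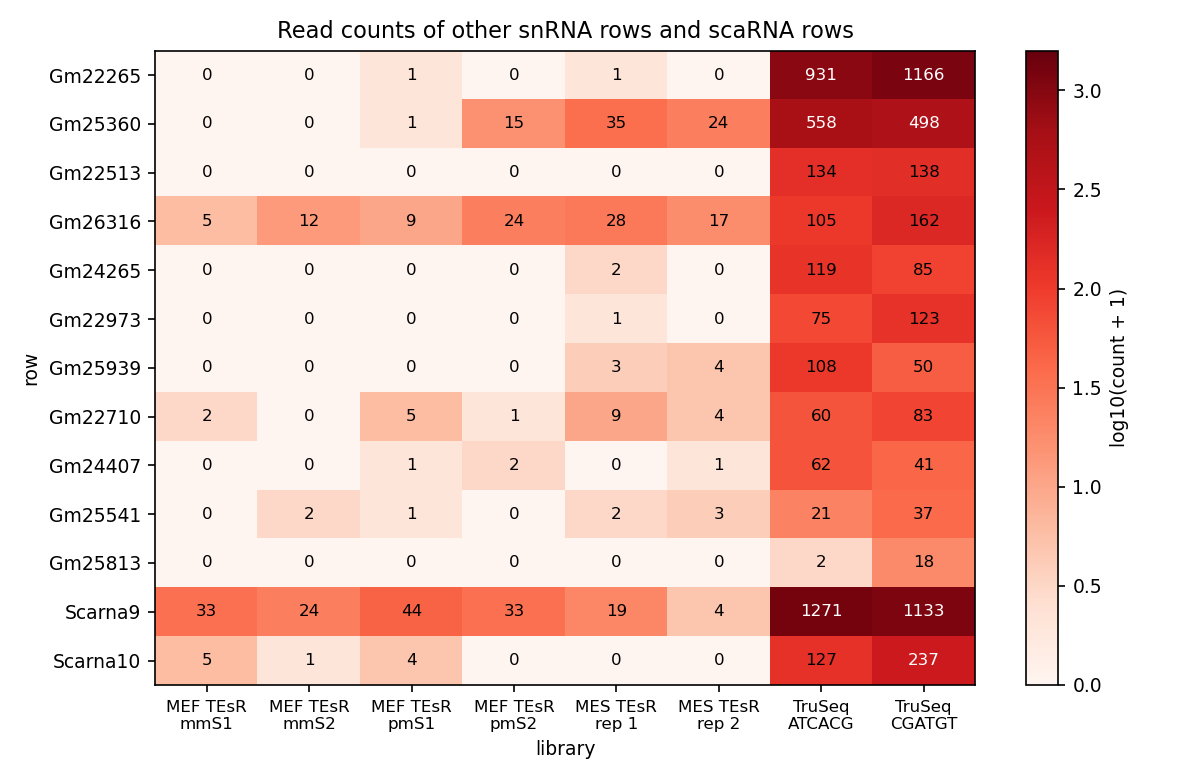
Read counts of the other snRNA rows with at least 10 counts in a library and of 2 Cajal body RNA rows, printed in each cell and coloured by log10(count + 1), with libraries from left to right in the order MEF TEsR, MES TEsR and TruSeq. Gm26316 is the one snRNA row shown with counts in all 8 libraries.

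The named rows of the other spliceosomal RNAs were almost empty in every library. Rnu1a1 (U1, which recognises the start of the intron) had 1 count in pmS1 and 0 elsewhere, Rnu2-10 had 2 counts in CGATGT and 0 elsewhere, and Rnu1b1, Rnu1b2, Rnu1b6, Rnu6 and Rnu6-ps2 had none in any library. These rows have exact copies: Rnu1a1 shared its sequence with 6 other rows, Rnu2-10 with 3 and Rnu6, the catalytic RNA that pairs with U2, with 42. Of 1382 snRNA rows with a sequence, the 95 with an exact copy held 1 count in MEF TEsR and 3 in MES TEsR, against 14 in TruSeq. The 1287 without one held 120 in MEF TEsR and 147 in MES TEsR, against 118992 in TruSeq. None of the 9 had an exact copy or a row within 2 edits. How reads with several matches were treated is not given, and its part in these empty rows was not tested.

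The small Cajal body RNAs, which guide the modification of snRNAs, were read for comparison. Scarna9 had 33, 24, 44 and 33 counts in MEF TEsR and 19 and 4 in MES TEsR, against 1271 and 1133 in TruSeq. Scarna10 had 5, 1, 4 and 0 counts in MEF TEsR and 0 and 0 in MES TEsR, against 127 and 237 in TruSeq. Scarna9 was counted in every TEsR library, and none of the 9 snRNAs was.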

How the data were processed

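Small RNAs were counted in 8 libraries of 3 groups, given in 2 tables with the same rows. The values are deposited read counts per row, whole numbers with no normalization, per the file headers. The tools were bedtools 2.25.0, SAMtools 1.2.1, BWA 0.7.12 and cutadapt, on mm10, per the submitters' processing notes. Their settings, the use of strand and the treatment of reads with several matches are not stated. The TEsR columns carry the tag q10, the TruSeq columns do not, and its meaning is not stated. TruSeq columns are named by index and follow the sample titles (induced), although their table is named a control. No per-sample column was left unused.

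The members and all lists were chosen with earlier results of these data known. All 9 members are named; of the other snRNA rows, the 5 highest by mean CPM in each group, those called between MEF and MES TEsR, the 5 rows nearest the members' median profile and Cajal body RNA rows are named, besides rows singled out after their values were seen (Snord88c, Snord13, Gm26447 and the named U1, U2 and U6 rows). Row types came from GENCODE vM21: 5453 rows matched, 5445 at the same coordinates, and 65 unmatched rows had no count. Of 45 overlapping pairs of rows with counts, 30 were identical and none held a member.

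CPM are counts over a library's total. Shares have exact Clopper-Pearson 95% intervals, ratios of pooled counts exact 95% intervals, and a 0 was limited at 3 counts per library. No molecular identifiers are described for the reads, so these cover counting error only. Each pair of groups was fitted with edgeR 4.0.16 under R 4.3.3 (robust quasi-likelihood test, TMM scaling, filterByExpr with a minimum count of 10, Benjamini-Hochberg adjustment, threshold 0.05). The procedure was tried on simulated data in which all rows had the same spread between libraries. Its outcome there is therefore not carried over to these libraries. Alternatives were DESeq2 1.42.0, library size only, no filter, identical overlapping rows counted once and each library left out. No library was a duplicate: chi-square per degree of freedom was at least 21.9 between libraries of a group. The sequences of Rnu5g and the copies of its length are not reported here. Edit distances and the longest run of T in each sequence were computed with Python 3.11.15.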

Additional observations from a re-analysis of the deposited data

Results flagged for a closer look

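In the group of 4 MEF TEsR libraries, 6 snRNA rows had 1 library far from the other 3 relative to the group's range (Dixon's criterion). Chance flags about 1 in 20 groups, and a row with a single read in 1 of 4 libraries always meets the criterion. Gm25360, a row close to U2, had 15 counts in pmS2, against 0, 0 and 1 in the other MEF TEsR libraries; 35 and 24 were counted in MES TEsR. The other 5 were single reads: Gm22265 had 1 count in pmS1, Gm25099 had 1 in mmS1, Gm23143 and Rnu5g had 1 each in mmS2, and Rnu7 had 1 in pmS2.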

How the results depend on the processing

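The 9 rows were lower in MEF TEsR and in MES TEsR than in TruSeq under every alternative that was run. Summed CPM of the 9 was 2.43 in MEF TEsR and 0.905 in MES TEsR, against 6581 in TruSeq; without the 2 leading rows of each library it was 11.0 in MEF TEsR and 4.82 in MES TEsR, against 21729 in TruSeq. With a library left out it ranged over 1.26 to 3.14 in MEF TEsR and 0.374 to 1.44 in MES TEsR. Members detected were 5 in MEF TEsR (3 to 5 with a library left out; 1 at a minimum of 10 counts) and 2 in MES TEsR (1 to 2; 0 at that minimum). Without the 9, snRNA rows took 0.0269% of TruSeq counts.

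The limit for absence was varied after seeing the data. At 0 counts, 4 of the 9 and 6 other rows met it in MEF TEsR, and 4 other rows in MES TEsR; at 5 counts 32 other rows met it in MEF TEsR and 25 in MES TEsR, and at 10 counts 39 in MEF TEsR and 31 in MES TEsR. Of the 2 other snRNA rows lower in MEF TEsR than in MES TEsR, 0 were called with DESeq2, 1 with library size only and 0 to 2 with a library left out, while 5 rows were called with no filter. In MES TEsR against TruSeq, 0 other snRNA rows were higher, 1 with no filter and 0 to 1 with a library left out. In that fit Gm22710 (-0.43) turned to 0.0064 with DESeq2 and ranged over -1.11 to 0.25 with a library left out, positive without MES TEsR replicate 2, and Gm26316 (0.46) turned to -0.91 with library size only; the cause was not tested. Scaling by library size gave a median log2 fold change over all rows of 0.38 for MEF TEsR against MES TEsR, against -0.45 as reported. Low TEsR counts limit every statement on the 9 within TEsR.

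No paired analysis was possible because the TruSeq libraries are named by index, without a number, and the MEF TEsR codes are not tied to the numbers in the labels.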
